A study of Mus musculus with 9 samples.

Results

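Ribosome biogenesis factors are the proteins that transcribe, modify, cut and fold ribosomal RNA and assemble it with ribosomal proteins. The set described here holds 42 mouse genes, given as a list of gene symbols. The list was chosen with earlier results of these data known. All 42 were found among the 56980 gene identifiers of the table, and all 42 passed the filter on low values that left 12904 tested genes, so no factor is missing from any count. They fall into 5 role groups, namely 3 subunits of RNA polymerase I, 12 small-subunit factors, 15 large-subunit factors, 8 factors of small nucleolar ribonucleoproteins (snoRNPs) and 4 nucleolar proteins of several roles. The cells were MH-S, an SV40-transformed line of mouse alveolar macrophages, and their polyadenylated RNA was read after 24 h in 3 groups of 3 libraries. The controls received no agent, the CuO NPs group received copper oxide nanoparticles at 20 µg/ml, and the CuO NPs + TTM group received the same dose of nanoparticles with 10 µM TTM. TTM is not written in full in the labels; it is the common abbreviation of tetrathiomolybdate, which chelates copper. No group received TTM alone, so a response to TTM itself and a response to TTM in the presence of the nanoparticles cannot be told apart. All libraries came from 1 cell line. Separate cultures are not mentioned for the replicates, so p-values here cover no more than the spread between these samples, which may be technical.

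Ribosome production begins in the nucleolus, where RNA polymerase I copies the ribosomal DNA into a long precursor. The small-subunit processome, a large particle with the U3 snoRNP at its core, binds this precursor while it is still being made and releases the precursor of the small subunit. Large-subunit factors such as the PeBoW complex of Pes1, Bop1 and Wdr12 process the rest. Box C/D snoRNPs guide methylation of the RNA, and box H/ACA snoRNPs guide its conversion of uridine to pseudouridine. Cells that grow and divide use much of their energy on this work, and the transcription factor MYC is known as a driver of many of its genes, which it binds through the letters CACGTG, called an E-box. Transcript levels of the factors were measured here, and neither ribosomal RNA nor ribosomes were.

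Promoter sequences, taken from RefSeq on build GRCm38.p6 as 250 bases before and 50 bases after each start, were on hand for 37 of the 42 factors and not for Fbl, Npm1, Bop1, Rrp12 and Rrs1. CACGTG, which reads the same on both strands and was the only motif searched, was in the promoters of 8 of the 37 (21.6%). The same letters were in 12% of the 9033 tested genes with a promoter and in 7.15% of all 32851 promoters of that length. The 8 factors were Tsr1, Wdr43, Utp20 and Ltv1 of the small subunit, Nop2, Pes1 and Nle1 of the large subunit, and Mybbp1a. None of the 7 snoRNP factors or 3 polymerase subunits with a promoter in the table held the letters. They are shown because they share these letters, as 30 bases written 5′ to 3′ on the strand of the gene with CACGTG in capitals. They lie at chr11:74898092-74898121 on the plus strand for Tsr1, chr17:71616220-71616249 on the plus strand for Wdr43, chr10:88826765-88826794 on the minus strand for Utp20 and chr10:13193092-13193121 on the minus strand for Ltv1. Those of the others are chr6:125131811-125131840 on the plus strand for Nop2, chr11:3963965-3963994 on the plus strand for Pes1, chr11:82908355-82908384 on the minus strand for Nle1 and chr11:72441347-72441376 on the plus strand for Mybbp1a.
Tsr1: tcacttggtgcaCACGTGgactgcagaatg
Wdr43: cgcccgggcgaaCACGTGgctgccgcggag
Utp20: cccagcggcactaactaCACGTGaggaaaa
Ltv1: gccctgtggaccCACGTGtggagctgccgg
Nop2: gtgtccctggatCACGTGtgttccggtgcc
Pes1: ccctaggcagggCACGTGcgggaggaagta
Nle1: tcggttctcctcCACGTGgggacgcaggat
Mybbp1a: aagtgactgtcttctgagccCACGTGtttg
In Nop2 the motif began 60 bases before the start of transcription, and in the other 7 it began between 2 bases (Pes1) and 40 bases (Mybbp1a) after it. A match is a description of the letters and shows neither binding nor a cause.

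The 250 bases before the start are given for 2 factors whose levels moved differently, as described with their values further on, to show a promoter with the motif beside one without it. This pair does not stand for the other factors. Of the 29 whose promoters lack the motif, 25 fell against control when TTM was present, as did all 8 with it. Nop2 lies at chr6:125131633-125131882 on the plus strand and Nop14 at chr5:34660149-34660398 on the minus strand, and the motif is again in capitals.
Nop2: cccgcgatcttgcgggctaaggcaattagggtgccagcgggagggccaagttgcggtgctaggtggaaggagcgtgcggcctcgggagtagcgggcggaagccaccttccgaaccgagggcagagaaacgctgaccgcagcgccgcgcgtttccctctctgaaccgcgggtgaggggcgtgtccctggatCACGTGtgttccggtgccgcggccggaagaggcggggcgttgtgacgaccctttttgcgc
Nop14: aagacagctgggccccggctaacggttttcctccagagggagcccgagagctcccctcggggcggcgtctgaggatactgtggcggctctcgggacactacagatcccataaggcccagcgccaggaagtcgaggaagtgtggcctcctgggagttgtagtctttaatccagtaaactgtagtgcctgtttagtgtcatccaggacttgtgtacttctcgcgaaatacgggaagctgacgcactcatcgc
No CACGTG was found in the window of Nop14, which says only that these letters are not in it.

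Levels are in TPM, transcript abundances that the authors scaled for transcript length to 1 fixed total per library. A TPM value is therefore a share of the polyadenylated RNA of a library. A lower value is a lower share, and neither the number of cells nor the RNA per cell can be read from it. From 19710 to 20863 genes were above 0 in a library, and the read depth behind the values is unknown. The lowest correlation of log2(TPM + 1) between 2 libraries of a group was 0.981 and the highest between groups was 0.962, across genes, which are not independent replicates. The 12 macrophage markers summed to between 3515 and 3590 TPM in controls, 1791 and 1839 TPM with CuO NPs, and 2155 and 2227 TPM with CuO NPs + TTM, and Cd68 was the highest. Markers of other cell types were lower in sum, with 65.2 to 402 TPM for granulocytes and mast cells (Cpa3 and Mcpt4 at 0), 2.35 to 16 TPM for fibroblasts, 8.26 to 14.3 TPM for endothelium, 1.02 to 2.83 TPM for epithelium (Epcam, Scgb1a1, Sftpa1 and Sftpc at 0) and 0.24 to 2.73 TPM for lymphocytes (Cd8a at 0).

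In controls the factors spanned means of 22.4 TPM (Polr1b) to 1986 TPM (Npm1), with a median of 90.7 TPM. Npm1, nucleophosmin, and Ncl, nucleolin, had the highest levels per length, at 1986 ± 107 TPM and 658 ± 36.7 TPM (SD, n = 3 libraries, here and for every level with ±). Nhp2 at 405 ± 21.4 TPM, Nop58 at 345 ± 30.5 TPM and Nop56 at 317 ± 27.6 TPM came next, and the SDs of Nop58 and Nop56 overlapped. The summed level of the 42 factors was 7252 ± 243 TPM in controls, 6433 ± 85.8 TPM with CuO NPs and 4463 ± 162 TPM with CuO NPs + TTM, or 0.725%, 0.643% and 0.446% of all TPM. The libraries of the 3 groups did not overlap in this sum, which ran from 6982 to 7452 TPM in controls, from 6342 to 6511 TPM with CuO NPs and from 4306 to 4630 TPM with CuO NPs + TTM. These sums were not rescaled, and the step from control to CuO NPs depends on scaling. Its median log2 fold change was -0.15 for the factors and -0.12 for all tested genes. With median-of-ratios scaling, described further on, these medians were -0.02 and -0.01. Without Npm1 the sums were 5267, 4774 and 3341 TPM, so the order did not rest on that gene.

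**Figure D1:**
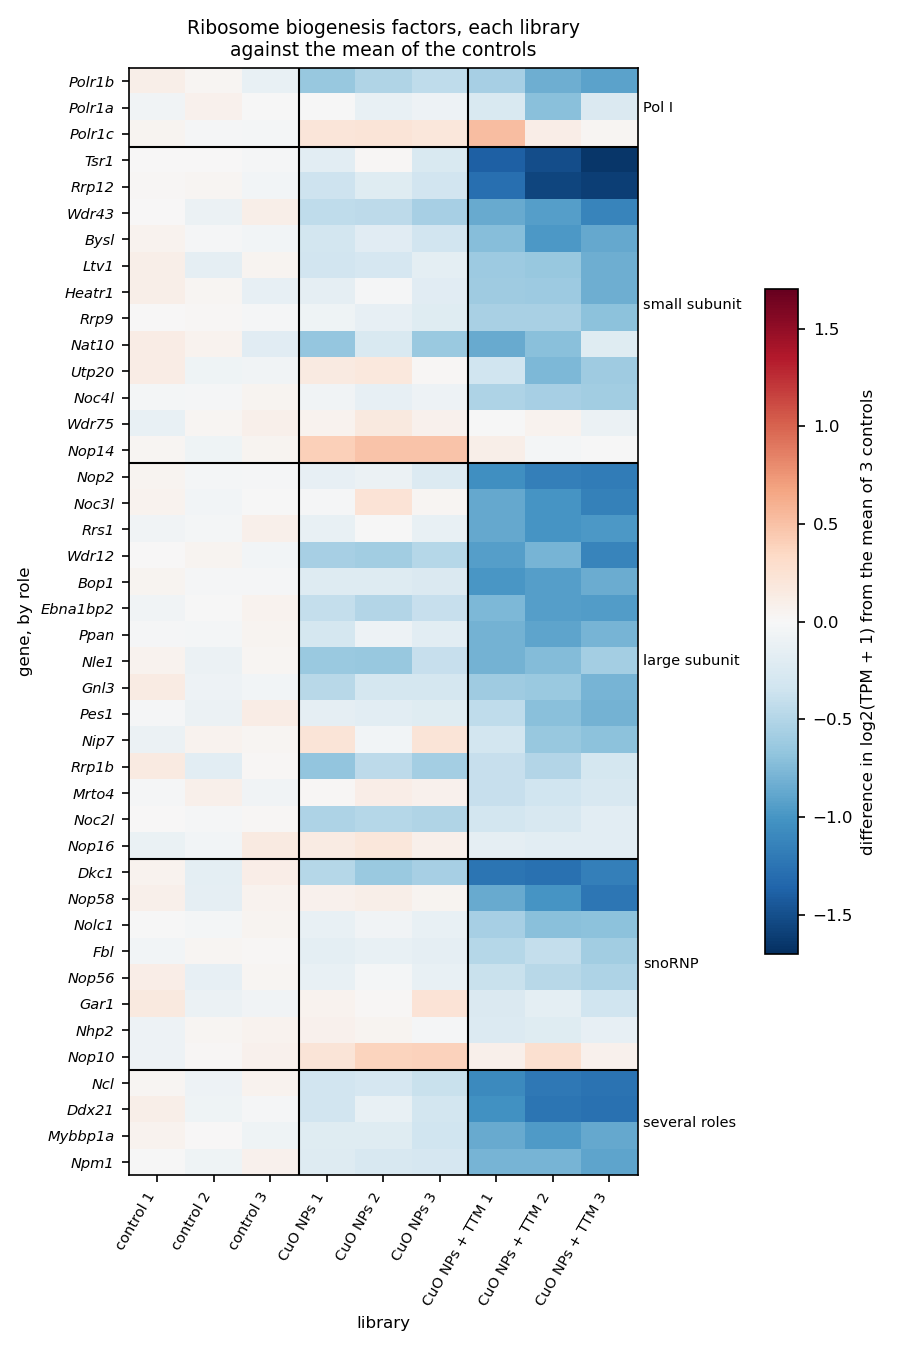
Difference in log2(TPM + 1) of each of the 42 factors (rows, by role) in each of 9 libraries (columns) from the mean of the 3 control libraries, as colour from blue (lower) to red (higher). The CuO NPs + TTM libraries were below the controls for nearly all rows, with Tsr1 and Rrp12 the lowest, while the CuO NPs libraries were a mix of lower rows such as Dkc1 and higher rows such as Nop14, and with median-of-ratios scaling 8 factors were called higher and 10 lower there.

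CuO NPs were first set against control, which asks how the nanoparticles alone left these transcripts. The change was small, and it was split by factor. Of the 42 factors, 21 fell (where 30.1% of all tested genes fell), 2 rose (4.76%, where 11.8% of all tested genes rose) and 19 were not called, by limma with Benjamini-Hochberg adjustment over all 12904 genes. The median log2 fold change was -0.15 for the factors and -0.12 for all tested genes, a difference of -0.03, so as a group the factors lay close to the middle of all genes. Scaling moves this balance of higher and lower calls: median-of-ratios scaling, which moves the median of all genes to -0.01, gave 8 factors higher and 10 lower, and over all genes 2534 higher and 2628 lower in place of 1518 and 3890. The 8 higher there were Polr1c, Nop14, Wdr75, Nop16, Noc3l, Mrto4, Nop10 and Gar1. None of the 42 changed 2-fold, where 3.32% of all genes had a log2 fold change of -1 or less. A value of -0.5 or less was seen for 7 of the 42, where 15.2% of all genes had one. These 7 were Nle1, Dkc1, Rrp1b, Wdr12, Polr1b, Noc2l and Nat10. By role, 9 of 15 large-subunit factors, 4 of 4 nucleolar proteins of several roles, 5 of 12 small-subunit factors, 2 of 8 snoRNP factors and 1 of 3 polymerase subunits fell. Calls that held under all 18 settings tried were those of Polr1b, Wdr43, Rrp1b, Wdr12, Nle1, Noc2l, Gnl3, Ebna1bp2, Dkc1 and Ncl (lower) and of Nop14 and Nop10 (higher). Leaving out control replicate 1 or CuO NPs replicate 1 left 13 factors called lower. Over all tested genes those fits called 3044 of 12740 and 3153 of 12801 lower, in place of 3890 of 12904.

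When TTM was added to the nanoparticles, most factors fell. Against CuO NPs alone, 34 of 42 factors fell (81.0%, where 18.5% of all tested genes fell), 1 rose (2.38%, where 34.6% rose) and 7 were not called. The factors' median log2 fold change was -0.46 while that of all tested genes was 0.12, so the factors lay 0.58 below the median gene, a difference of -0.58 that was -0.59 with median-of-ratios scaling. The factor that rose was Noc2l, and with median-of-ratios scaling its log2 fold change was 0.12 (adjusted p = 0.0647), so no factor was called higher there and 38 were called lower. A log2 fold change of -0.5 or less was seen for 18 factors, where 9.32% of all genes had one, and of -1 or less for 4 factors, Tsr1, Rrp12, Nop58 and Noc3l, where 2.01% of all genes had one. All 4 nucleolar proteins of several roles fell, as did 10 of 12 small-subunit factors, 12 of 15 large-subunit factors, 7 of 8 snoRNP factors and 1 of 3 polymerase subunits. Of the 34 lower calls 33 held under all 18 settings. The other was Polr1a, called under 11 of the 18.

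Against control, the cells given CuO NPs + TTM showed the lowest levels. Of the 42 factors, 38 fell (90.5%, where 28.2% of all tested genes fell), none rose in limma's test (where 27.3% of genes rose), also at an unadjusted p below 0.05, and 4 were not called, Polr1c, Nop14, Wdr75 and Nop10. These 4 had log2 fold changes of 0.22, 0.02, -0.02 and 0.14. The median was -0.68 for the factors and 0.00 for all tested genes. A log2 fold change of -0.5 or less was seen for 29 factors and of -1 or less for 8, where 16% and 4.44% of all genes had one. All 15 large-subunit factors and all 4 nucleolar proteins of several roles fell, with 10 of 12 small-subunit factors, 7 of 8 snoRNP factors and 2 of 3 polymerase subunits. Of the 38 calls 35 held under all 18 settings, and the others were Nat10 (14 settings), Gar1 (13) and Nop16 (4). Without CuO NPs + TTM replicate 3, Polr1c was called higher with 0.32 (adjusted p = 0.0301). This comparison shares its control libraries with that of CuO NPs alone and its treated libraries with that of TTM, so the 3 sets of values are not independent of one another.

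**Figure D2:**
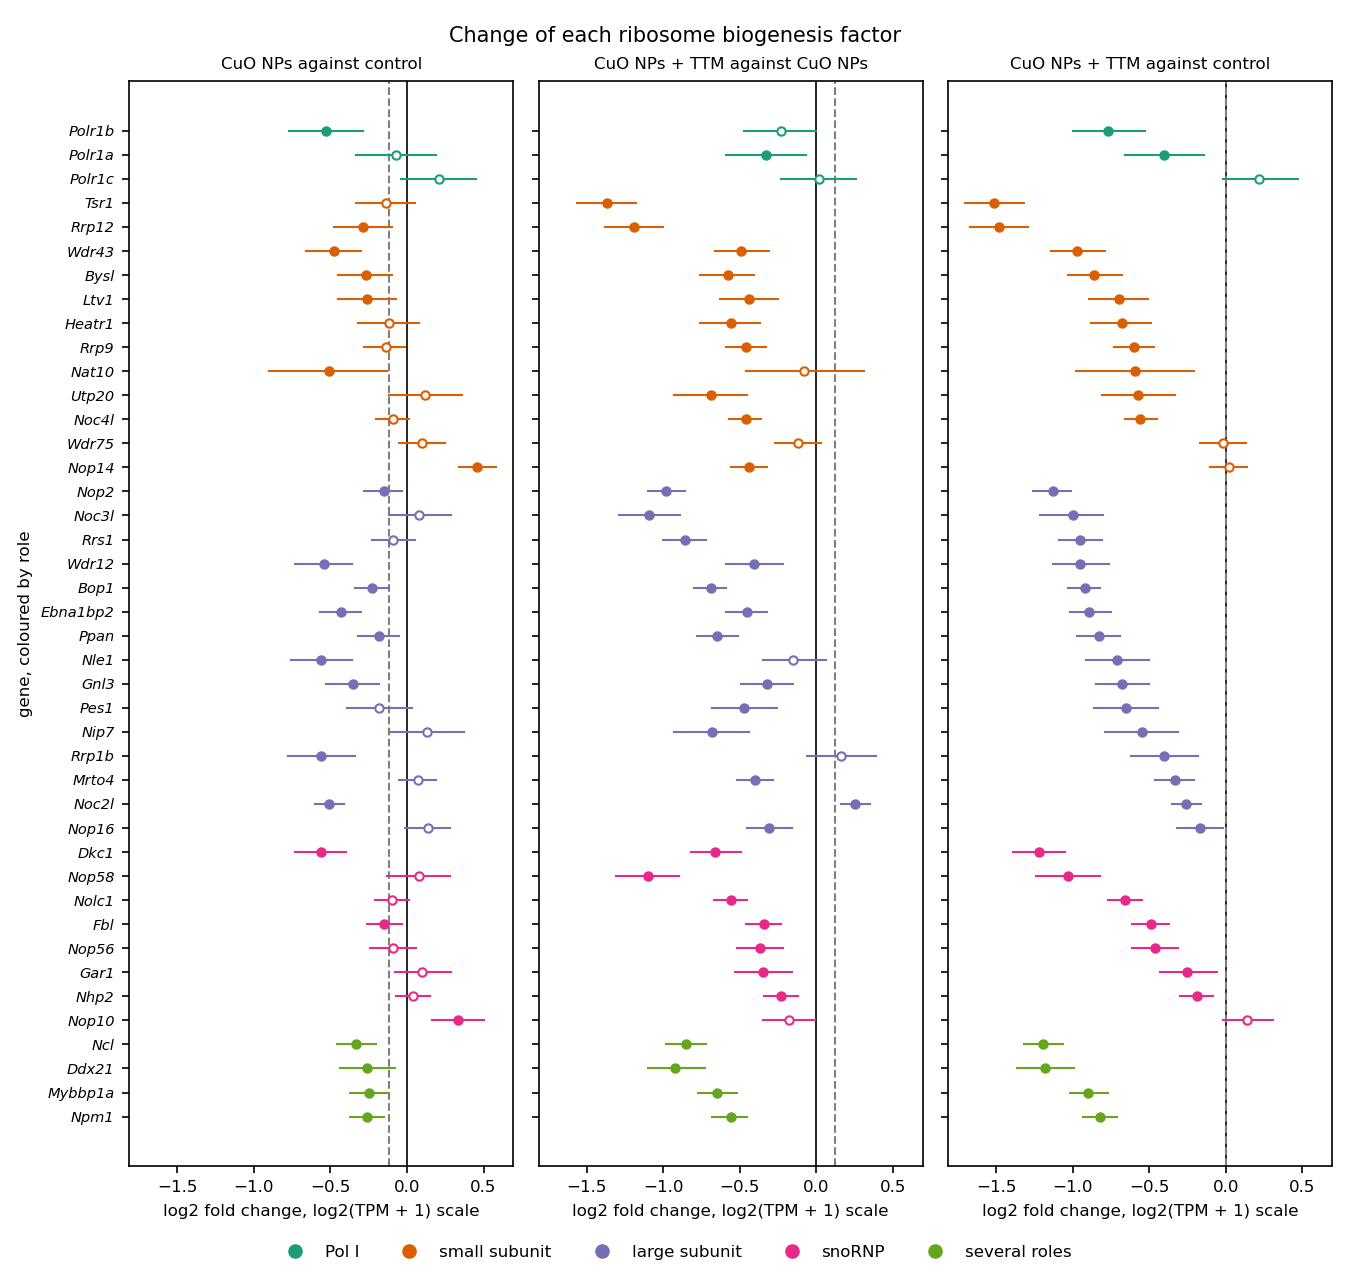
Log2 fold change of each factor on the log2(TPM + 1) scale in the 3 comparisons, with its 95% confidence interval from limma, coloured by role, filled where called at an adjusted p below 0.05 and open where not. The dashed line is the median of all 12904 tested genes, at -0.12, 0.12 and 0.00, and filled points were 21 lower and 2 higher in the left panel (10 and 8 with median-of-ratios scaling), 34 lower and 1 higher in the middle panel and 38 lower in the right panel.

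The 3 subunits of RNA polymerase I differed from one another. Polr1b, which with Polr1a forms the catalytic core, was at 24.0, 22.8 and 20.3 TPM in the controls, at 13.9, 15.4 and 16.3 TPM with CuO NPs and at 14.8, 12.1 and 11.5 TPM with CuO NPs + TTM. All 6 treated libraries lay below all controls, and the treated groups overlapped each other. Its log2 fold change was -0.53 with CuO NPs (SE 0.106, limma adjusted p = 0.00323) and -0.77 with CuO NPs + TTM against control (adjusted p = 2.26e-04), and that of TTM against CuO NPs was -0.23 (adjusted p = 0.0895), called without CuO NPs + TTM replicate 1 (-0.34), with median-of-ratios scaling (-0.36) and without mitochondrial genes in the total (-0.29). Polr1a, the largest subunit, was at 39.1, 43.0 and 40.6 TPM in controls, 40.8, 37.3 and 38.4 TPM with CuO NPs and 34.1, 24.5 and 34.4 TPM with TTM added. Controls and CuO NPs overlapped, and the TTM libraries lay below both, with replicate 2 the lowest. Polr1a fell with TTM against CuO NPs by -0.33 on the log2 scale (SE 0.116, limma, adjusted p = 0.0352), a call lost when CuO NPs replicate 1 (-0.30), 2 (-0.36) or 3 (-0.34) or CuO NPs + TTM replicate 2 (-0.18) was left out. Polr1c, a subunit shared with RNA polymerase III, was at 58.2 ± 1.82, 67.3 ± 0.692 and 69.0 ± 13.4 TPM in the same order and was called in no comparison. Without CuO NPs + TTM replicate 1, its highest library, the 0.21 of CuO NPs against control was called (adjusted p = 0.00854), as it was in the fit of those 2 groups alone (0.21) and with median-of-ratios scaling (0.34).

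Among small-subunit factors, Tsr1 and Rrp12 showed the largest falls of all 42 factors in both comparisons with TTM. Tsr1, which acts on the late precursor of the small subunit, was at 78.7, 78.4 and 77.3 TPM in controls and at 69.2, 79.5 and 64.9 TPM with CuO NPs, and these groups overlapped. With CuO NPs + TTM it was at 29.4, 26.9 and 24.3 TPM, below every other library. Its log2 fold change was -1.37 against CuO NPs (SE 0.085, limma adjusted p = 3.32e-06) and -1.51 against control (adjusted p = 9.57e-07), which left it at 34.4% of the control mean. Rrp12, known from yeast for the export of both subunit precursors, was at 53.8, 54.2 and 51.6 TPM in controls, 41.6, 46.0 and 42.4 TPM with CuO NPs and 21.4, 17.4 and 16.8 TPM with TTM added. The 3 groups of Rrp12 did not overlap. Its log2 fold changes were -0.29 with CuO NPs (limma adjusted p = 0.0214), -1.19 with TTM against CuO NPs (adjusted p = 7.13e-06) and -1.48 against control (adjusted p = 1.12e-06). The smallest of these was lost as a call without control replicate 1 (-0.28), control replicate 2 (-0.28), CuO NPs replicate 1 (-0.26) or CuO NPs replicate 3 (-0.28), and with median-of-ratios scaling (-0.16).

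Wdr43 and Nat10 were the small-subunit factors with the largest called falls under CuO NPs alone. Wdr43, a processome protein that joins the precursor during transcription, was at 105, 97.5 and 112 TPM in controls, 77.4, 76.2 and 70.4 TPM with CuO NPs and 57.4, 54.4 and 47.6 TPM with TTM added. Its 3 groups did not overlap, with falls of -0.48 (SE 0.078, limma adjusted p = 9.88e-04) and then -0.49 (adjusted p = 6.50e-04). Nat10, which acetylates cytidines of small-subunit RNA, was at 41.0, 39.3 and 32.6 TPM in controls, 23.4, 31.2 and 23.9 TPM with CuO NPs and 20.2, 22.5 and 32.3 TPM with TTM added. Its replicates spread more than those of any other factor in both treated groups (coefficients of variation of 16.7% and 25.6%). Its fall of -0.51 with CuO NPs (limma adjusted p = 0.0372) was lost without control replicate 1 (-0.45) or 2 (-0.48) and without CuO NPs replicate 1 (-0.44) or 3 (-0.46). With median-of-ratios scaling this fall was -0.38 and was not called. For Nat10, TTM against CuO NPs gave -0.08 with overlapping groups. Its fall of -0.59 against control with TTM was lost without control replicate 1 (-0.53) and without CuO NPs + TTM replicate 1 (-0.46) or 2 (-0.53).

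Nop14, a processome protein that binds Noc4l, was with Nop10 1 of the 2 factors that rose with CuO NPs. It was at 98.9, 91.7 and 99.6 TPM in controls, 128, 136 and 136 TPM with CuO NPs and 104, 94.3 and 96.3 TPM with CuO NPs + TTM. The CuO NPs libraries were above all others, and the TTM libraries overlapped the controls. Nop14 rose by 0.46 (log2) with CuO NPs (SE 0.054, limma adjusted p = 1.42e-04) and fell by -0.44 with TTM against CuO NPs (adjusted p = 1.44e-04). Noc4l itself had -0.09 with CuO NPs, uncalled, and fell by -0.46 with TTM against CuO NPs. The other processome proteins Utp20 (-0.69), Heatr1 (-0.56) and the U3 snoRNP protein Rrp9 (-0.46) fell with TTM against CuO NPs and were not called for CuO NPs against control, while Wdr75 was called in no comparison. With median-of-ratios scaling Wdr75 was called higher with CuO NPs (0.23, limma adjusted p = 0.0320) and lower with TTM against CuO NPs (-0.24, adjusted p = 0.0188). Bysl and Ltv1, which stay on the precursor late, fell in all 3 comparisons, with -0.86 and -0.70 against control when TTM was present, and their smaller falls with CuO NPs (-0.27 and -0.26) were lost without control replicate 1 (-0.24 and -0.21) or CuO NPs replicate 1 (-0.25 and -0.23). The call of Bysl was also lost without CuO NPs replicate 3 (-0.25), and that of Ltv1 without control replicate 3 (-0.23) or CuO NPs replicate 2 (-0.24). With median-of-ratios scaling these falls of Bysl and Ltv1 were -0.14 and -0.13 and were not called.

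With TTM present, all 15 large-subunit factors fell against control, and 12 of the 15 fell against CuO NPs. Nop2, a methyltransferase of large-subunit RNA and 1 of the factors with the E-box letters shown above, was at 194, 183 and 184 TPM in controls, 170.4, 175 and 159 TPM with CuO NPs and 90.2, 82.7 and 81.3 TPM with CuO NPs + TTM. No 2 groups overlapped, and the step between CuO NPs and CuO NPs + TTM was the wider one. That step measured -0.98 on the log2 scale (SE 0.055, limma, adjusted p = 2.13e-06). The difference between control and CuO NPs was -0.15 (limma adjusted p = 0.0488) and was lost as a call in 11 of the 17 alternatives. With median-of-ratios scaling it was -0.02. The call was also lost without control replicate 1 (-0.13), 2 (-0.17) or 3 (-0.16), without CuO NPs replicate 1 (-0.16) or 3 (-0.11) and without CuO NPs + TTM replicate 2 (-0.15). Noc3l, known from yeast for the transport of the large-subunit precursor within the nucleus, was at 29.1, 26.9 and 27.6 TPM in controls, 27.4, 32.8 and 28.6 TPM with CuO NPs and 14.8, 13.4 and 12 TPM with TTM added. Controls and CuO NPs overlapped, and the TTM libraries, below both, averaged 48.2% of the control mean, with -1.09 against CuO NPs (SE 0.090, limma adjusted p = 1.44e-05).

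Rrp1b, Nle1 and Noc2l fell with CuO NPs and were not called lower again when TTM was added, except Nle1 with median-of-ratios scaling. Rrp1b, a nucleolar partner of protein phosphatase 1, was at 32.2, 25.4 and 29.4 TPM in controls, 17.8, 21 and 18.9 TPM with CuO NPs and 21.7, 20.1 and 23.3 TPM with TTM added. Both treated groups lay below the controls and overlapped each other, with -0.56 for CuO NPs against control (SE 0.098, limma adjusted p = 0.00152) and 0.16 for TTM against CuO NPs (adjusted p = 0.185, 95% interval -0.06 to 0.39). Nle1, which carries the E-box letters and helps a large motor protein to strip assembly factors from the precursor, was at 30.9, 27.7 and 30.4 TPM, then 18.7, 18.5 and 22.3 TPM, then 16.5, 17.4 and 19.5 TPM. Its treated groups overlapped each other below the controls, with -0.56 (SE 0.091, limma adjusted p = 9.78e-04) and then -0.15 (adjusted p = 0.199, 95% interval -0.35 to 0.06), the latter called with median-of-ratios scaling (-0.27, adjusted p = 0.0406). Noc2l, known from yeast as a partner of Noc3 and in mammals also as an inhibitor of histone acetyltransferases, was at 201, 198 and 204 TPM, then 139, 143 and 141 TPM, then 163, 166 and 177 TPM. Its 3 groups did not overlap, with the CuO NPs libraries the lowest. Noc2l fell by -0.51 (SE 0.042, limma adjusted p = 1.47e-05) and rose by 0.25 with TTM (adjusted p = 8.10e-04), and against control it remained lower with TTM by -0.26 (adjusted p = 6.54e-04).

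The PeBoW proteins Pes1, Bop1 and Wdr12 all fell when TTM was added, with log2 fold changes against CuO NPs of -0.47, -0.69 and -0.41 and against control of -0.65, -0.92 and -0.95. Under CuO NPs alone Wdr12 fell by -0.54 and Bop1 by -0.23, while Pes1 had -0.18 (limma adjusted p = 0.147), called without CuO NPs + TTM replicate 1 (-0.18). With median-of-ratios scaling Bop1 had -0.10 for CuO NPs against control and was not called. Rrs1, which brings the 5S ribonucleoprotein into the precursor, had -0.09 with CuO NPs and fell by -0.86 with TTM. Gnl3, the GTP-binding protein nucleostemin, and Ebna1bp2, whose yeast relative Ebp2 acts with Rrs1, fell in every comparison, with -0.68 and -0.89 against control when TTM was present. Ppan, the relative of yeast Ssf1, fell by -0.65 with TTM against CuO NPs, Nip7 by -0.68, Mrto4, which holds the place of the ribosomal stalk, by -0.40, and Nop16 by -0.31. Of these 4, Ppan was the one called for CuO NPs against control (-0.18), a call lost without any 1 of the 3 controls (-0.19, -0.20 and -0.16) and without CuO NPs replicate 1 (-0.13) or 3 (-0.19). With median-of-ratios scaling the value for Ppan was -0.05 and was not called. Nop16 reached -0.17 with TTM against control (limma adjusted p = 0.0488), lost without control replicate 2 or 3 or without any 1 of the 6 treated libraries (-0.19 to -0.09), and its 0.14 with CuO NPs was called without control replicate 3 (0.21).

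Among the snoRNP factors, Dkc1 and Nop58 had the largest falls against control with TTM and the small box H/ACA proteins the smallest differences, with Nolc1 (-0.66), Fbl (-0.49) and Nop56 (-0.46) between them. Dkc1, dyskerin, the pseudouridine synthase of box H/ACA particles, was at 92.6, 79.7 and 96.1 TPM in controls, 63.2, 57.1 and 60.1 TPM with CuO NPs and 37.2, 36.6 and 39.5 TPM with CuO NPs + TTM. The 3 groups were apart from one another, and each step was called, with -0.56 (SE 0.074, limma adjusted p = 2.82e-04) and -0.66 (adjusted p = 8.38e-05). Its partners in the same particle moved less against control when TTM was present, with -0.25 for Gar1, -0.19 for Nhp2 and 0.14 for Nop10, and the first of these was lost as a call without control replicate 1 (-0.17) and without CuO NPs + TTM replicate 1 (-0.25) or 3 (-0.20). Nop10, the smallest of them, was at 45.2, 48.8 and 50.5 TPM in controls, 56.1, 62.6 and 63.4 TPM with CuO NPs and 51.2, 58.5 and 50.5 TPM with TTM added. Its CuO NPs libraries were above all controls and the TTM libraries overlapped both groups, with a rise of 0.33 with CuO NPs (SE 0.076, limma adjusted p = 0.00688) and -0.18 for TTM against CuO NPs (adjusted p = 0.0675). That last value was called without CuO NPs replicate 1 (-0.24) or CuO NPs + TTM replicate 2 (-0.25), with median-of-ratios scaling (-0.31), without mitochondrial genes in the total (-0.24) and with the replicate number as a block (-0.18).

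Nop58, a core protein of box C/D particles, was at 366, 310.3 and 360 TPM in controls, 363, 369 and 357 TPM with CuO NPs and 190.5, 171 and 146 TPM with CuO NPs + TTM. Controls and CuO NPs overlapped, and all 3 TTM libraries were far below both, at -1.10 against CuO NPs (SE 0.092, limma adjusted p = 1.54e-05). Nop56, which pairs with Nop58 in the particle, had -0.37 in the same comparison and Fbl, fibrillarin, the methyltransferase, had -0.34, both called. The fall of Fbl with CuO NPs alone, -0.15 (limma adjusted p = 0.0458), was called under 6 of the 18 settings, and in each of the 6 fits that left out a control or a CuO NPs library it was lost, with values of -0.13 to -0.17. It was also lost without CuO NPs + TTM replicate 1 (-0.15). With median-of-ratios scaling the value for Fbl was -0.01 and was not called. Nolc1, a chaperone of snoRNPs in the nucleolus, had -0.10 with CuO NPs, uncalled, and fell by -0.56 when TTM was added.

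The 4 nucleolar proteins of several roles fell in all 3 comparisons. Ncl was at 671, 617 and 687 TPM in controls, 523, 540 and 504 TPM with CuO NPs and 310, 281 and 275 TPM with CuO NPs + TTM. No 2 groups of Ncl overlapped. Its log2 fold changes were -0.33 with CuO NPs (SE 0.058, limma adjusted p = 0.00150), -0.85 with TTM against CuO NPs (adjusted p = 5.42e-06) and -1.19 against control (adjusted p = 4.34e-07). Ddx21, an RNA helicase of the nucleolus, was at 115, 103 and 106 TPM, then 85.6, 98.5 and 86.6 TPM, then 52.6, 45.2 and 44.2 TPM. Its groups did not overlap either, with -0.26 (limma adjusted p = 0.0296), -0.92 (adjusted p = 2.15e-05) and -1.18 (adjusted p = 3.32e-06). The call of Ddx21 for CuO NPs was lost without control replicate 1 (-0.21) or 3 (-0.27) and without CuO NPs replicate 1 (-0.22) or 3 (-0.23). Npm1, at 1984, 1880.1 and 2093 TPM, then 1706, 1642 and 1630.3 TPM, then 1150.4, 1149 and 1067 TPM, fell by -0.26 and -0.56 in the first and second steps. Mybbp1a, which binds Pol I in the nucleolus, fell by -0.25 and -0.65. With median-of-ratios scaling the CuO NPs step of Ddx21, Npm1 and Mybbp1a was -0.13, -0.12 and -0.12 and was not called.

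**Figure D3:**
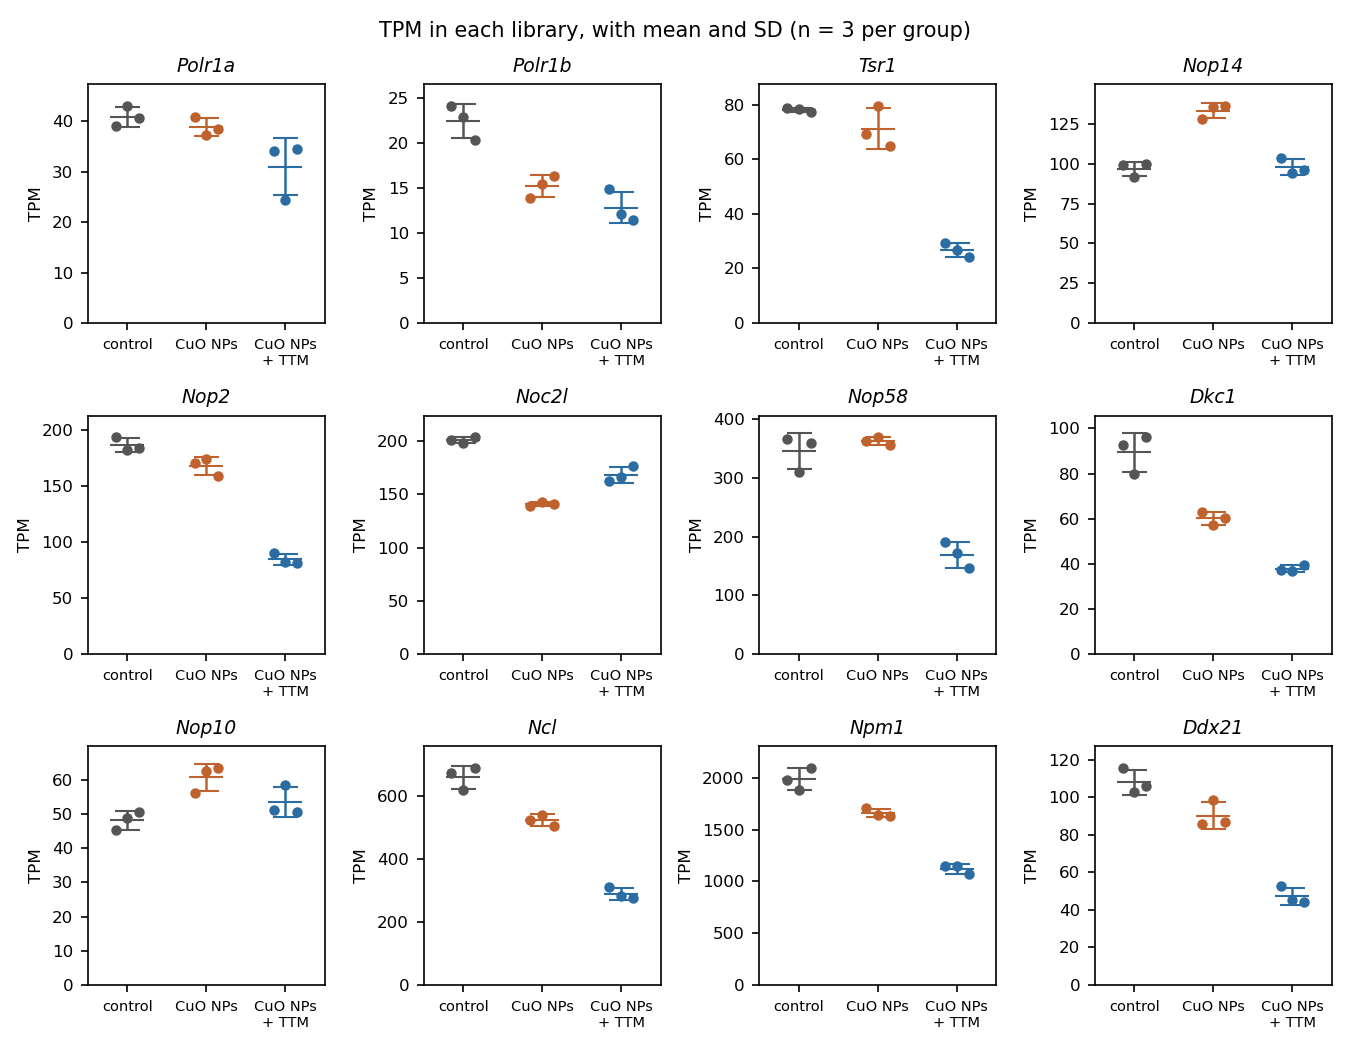
TPM of 12 of the factors in each library (points), with the group mean (long bar) and SD (whiskers, n = 3 per group) on linear axes from 0. Tsr1 and Nop58 with CuO NPs overlapped the controls and were far lower with CuO NPs + TTM, Dkc1 and Ncl fell in both steps, Nop14 and Nop10 had their highest means with CuO NPs alone, and Noc2l its lowest.

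Gene structure was compared with the changes as a description. By the GENCODE M21 annotation of build GRCm38, 8 of the 42 factors (19.0%) hold at least 1 snoRNA gene inside them on the same strand, where 1.78% of 10894 tested protein-coding genes do. The 8 hosts were Tsr1, Wdr43, Gnl3, Ppan, Nop56, Nop58, Dkc1 and Ncl, and Nop56 held the most, with 5. All 8 fell with TTM against CuO NPs, with a median of -0.66, and 26 of the 34 other factors fell, with a median of -0.44. Against control the medians were -1 and -0.62. Of all tested genes 18.5% fell against CuO NPs and 28.2% against control. The changes of the other tested genes that hold a snoRNA gene were not compared. The poly(A) libraries measured the host mRNAs and not the snoRNAs. Of the 8 factors with CACGTG in the promoter, all fell against control when TTM was present (median -0.80), as did 25 of the 29 whose promoters lack it (median -0.59), and 7 of 8 and 22 of 29 fell against CuO NPs (medians -0.57 and -0.41). Among all tested genes with a promoter in the table, 32.0% of those with CACGTG and 29.6% of those without fell against control, and 24.7% and 18.3% fell against CuO NPs. These differences between factors were not tested.

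Some values carry limits of position. A gene on the opposite strand overlaps 15 of the factors, such as Srr at Tsr1, Scx and Mroh1 at Bop1, Ccnd3 at Bysl, Idh3b at Nop56 and Samd11 at Noc2l. The library kit was stranded, so the reads can tell the strands apart. No source used here says that counting took account of the strand, so these values are uncertain to that extent. Of the 42, 4 had at least 20% of the 50-base runs of their longest coding transcript in a processed pseudogene, namely Fbl, Nop56, Npm1 and Mrto4. The TPM listed for those copies was at most 5.63% of that of the factor in any library, the highest share being for Fbl.

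A wider set of 139 other biogenesis genes from 5 lists moved in the same direction with TTM as the 42 factors, by smaller amounts. Against CuO NPs, 96 of the 139 fell (69.1%, where 18.5% of all tested genes fell) and 11 rose (7.91%, where 34.6% rose), with a median of -0.34. Against control 103 fell (74.1%, where 28.2% of all tested genes fell) and 9 rose (6.47%, where 27.3% rose), with a median of -0.37. For CuO NPs against control 30 fell (21.6%, where 30.1% of all tested genes fell) and 17 rose (12.2%, where 11.8% rose), shares below and near those of all genes. The median was -0.06, above the -0.12 of all genes. With median-of-ratios scaling 8 fell and 39 rose, where 2628 of all 12904 tested genes fell and 2534 rose. The counts for CuO NPs against control were 18 lower without CuO NPs replicate 1, 19 lower and 11 higher without CuO NPs replicate 3, and 11 higher without control replicate 2. Over all tested genes these fits called, in that order, 3153 lower, 3241 lower and 1278 higher, and 1246 higher. The count of 11 higher with TTM against CuO NPs was 7 without CuO NPs replicate 1 or 2, 6 without replicate 3, 5 without CuO NPs + TTM replicate 2, 7 without replicate 3 and 2 with median-of-ratios scaling. The 9 higher against control were 5 without control replicate 1.

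By list, with TTM against CuO NPs, 40 of 49 other small-subunit factors fell and 2 rose, 35 of 48 other large-subunit factors fell and 3 rose, 7 of 18 other genes of the polymerase I machinery fell and 3 rose, 9 of 16 exosome and nuclease genes fell and 3 rose, and 5 of 9 other snoRNP factors fell and 1 rose. The shares that fell ran from 38.9% to 81.6%, where 18.5% of all tested genes fell. Those that rose ran from 4.08% to 18.8%, where 34.6% of all tested genes rose. Among those that fell, Polr1g, a further polymerase I subunit, went from 18.0 ± 0.479 TPM in controls and 14.5 ± 0.590 TPM with CuO NPs to 4.88 ± 0.831 TPM, with a log2 fold change of -1.41 against CuO NPs (limma adjusted p = 7.24e-06). Taf1a, a subunit of the factor that brings polymerase I to the promoter, had -1.10, Grwd1 had -1.19, Rrp15 -0.93, the U3 snoRNP protein Imp4 -0.91, the helicase Ddx52 -0.85, the snoRNP assembly factor Znhit6 -1.03, the snoRNP factor Snu13 -0.51 and the nuclease Xrn2 -0.54, all called. Those that rose included Nvl (0.40), the exosome subunit Exosc8 (0.30), the assembly factor Nufip1 (0.37) and Nop53 (0.27), which recruits the exosome. Nop53 stood in both the large-subunit list and the exosome list and was counted in each, in every comparison. In the set of 139 it was counted once. Weaker rises were those of Ttf1 (0.39), lost without any 1 library but CuO NPs + TTM replicate 3 (0.23 to 0.43), and Imp3 (0.21), lost without CuO NPs or CuO NPs + TTM replicate 2 or 3 (0.14 to 0.22). Polr2f (0.20) was lost without CuO NPs replicate 2 or 3 or CuO NPs + TTM replicate 2 (0.12 to 0.18), and Nop9 (0.16) without 7 of the 9 libraries in turn, the exceptions being control replicate 3 and CuO NPs replicate 2. With median-of-ratios scaling these 4, Nop53 (0.15) and Nufip1 (0.25) were not called. Nop53 lost its call when CuO NPs replicate 2 (0.21), CuO NPs + TTM replicate 2 (0.23) or its replicate 3 (0.23) was left out. Exosc6, an exosome subunit, was at 10.6, 12.7 and 13.8 TPM in controls and 5.17, 1.51 and 4.67 TPM with CuO NPs, and it was listed at 0 in all 3 libraries with TTM.

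In the same lists under CuO NPs alone, 11 small-subunit factors fell and 6 rose, 12 large-subunit factors fell and 7 rose, 4 polymerase I genes fell and none rose in limma's test (1, Taf1a, at an unadjusted p below 0.05), 2 exosome and nuclease genes fell and 3 rose, and 1 other snoRNP factor fell and 2 rose, out of the totals given. The shares that fell in these 5 lists ran from 11.1% to 25% and were all below the 30.1% of all tested genes, and those that rose ran from 0 to 22.2%, where 11.8% of all tested genes rose. Beside Exosc6, whose library values are given above and which was called lower here too (-1.58, limma adjusted p = 0.00205), the lowest called of each list were Taf1d (-0.58) and Polr1e (-0.50) of the polymerase I machinery, Senp3 (-0.47) and Nol12 (-0.43) of the large subunit, Rrp8 (-0.41) and Imp4 (-0.38) of the small subunit and Mphosph6 (-0.32) of the exosome. The highest called were Riok3 (0.43) and Utp4 (0.36) of the small subunit, Lsg1 (0.42) and Zfp622 (0.41) of the large subunit, Exosc2 (0.29) and Nop53 (0.26). The call of Nop53 was lost without any 1 control (0.25 to 0.27) and without CuO NPs replicate 1 (0.22) or 3 (0.23). Of those that rose, Riok3, Lsg1 and Zfp622 are known to act late and in the cytoplasm. Stage and place of action were not compared between the genes that rose and the rest. Fcf1 (0.25), Utp14a (0.19) and Wdr46 (0.18) of the small subunit also rose, while Riok1 (-0.12), Nob1 (0.09) and Pno1 (-0.06) were not called. Riok3, Utp4, Lsg1, Zfp622 and Exosc2 all had called log2 fold changes below 0 with TTM against CuO NPs, of -0.62, -0.70, -0.56, -0.60 and -0.28 in that order. With median-of-ratios scaling Imp4 (-0.25), Rrp8 (-0.28), Mphosph6 (-0.19) and Ruvbl1 (-0.08) were not called, and Rrp8 also lost its call without control replicate 2 (-0.34). The snoRNP assembly proteins Ruvbl1 (-0.22), Ruvbl2 (0.25) and Rpap3 (0.25) were called, with losses for Ruvbl1 without control replicate 1 (-0.19), CuO NPs replicate 1 (-0.19) or 3 (-0.19), for Ruvbl2 without control replicate 3 (0.21) and for Rpap3 without control replicate 1 (0.22) or 2 (0.23).

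Against control with TTM present, 39 of the 49 small-subunit factors fell and 2 rose, 40 of 48 large-subunit factors fell and 3 rose, 11 of 18 polymerase I genes fell and none rose in limma's test, also at an unadjusted p below 0.05, 9 of 16 exosome and nuclease genes fell and 3 rose, and 4 of 9 snoRNP factors fell and 2 rose. The shares that fell ran from 44.4% to 83.3%, where 28.2% of all tested genes fell. Those that rose ran from 0 to 22.2%, where 27.3% of all tested genes rose. Polr1g (-1.7), Grwd1 (-1.32), Imp4 (-1.30), Rrp15 (-1.11), Rrp8 (-0.87), Taf1a (-0.78), C1d (-0.73), Znhit6 (-0.68) and Snu13 (-0.49) were the lowest called of their lists beside Exosc6. Nop53 (0.53), Exosc4 (0.40), Ruvbl2 (0.35), Nvl (0.29), Nufip1 (0.26), Imp3 (0.22) and Trmt112 (0.14) were the highest called. Imp3 lost its call without control replicate 1 or 3 or CuO NPs + TTM replicate 3 (0.15 to 0.21), Nufip1 without any 1 control, CuO NPs replicate 1 or CuO NPs + TTM replicate 2 or 3 (0.21 to 0.27), and Trmt112 without control replicate 1 or 2 or CuO NPs + TTM replicate 2 or 3 (0.12 to 0.14).

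**Figure D4:**
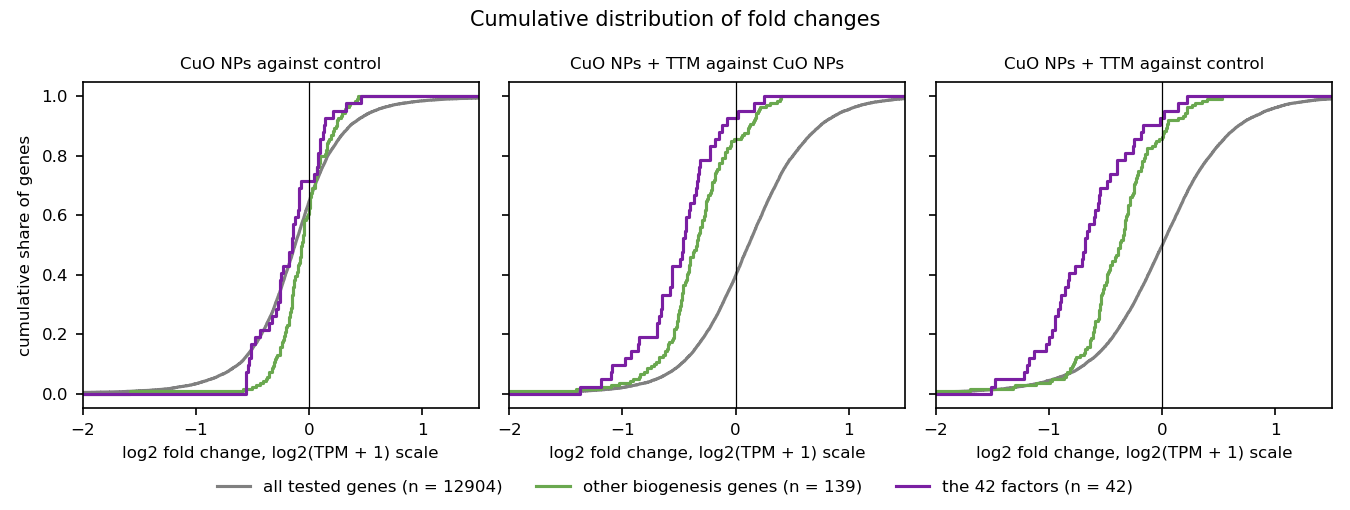
Cumulative share of genes (vertical axis, 0 to 1) at or below each log2 fold change (horizontal axis) in the 3 comparisons, for the 42 factors, the 139 other biogenesis genes and all 12904 tested genes. The curves lie close together for CuO NPs against control, where median-of-ratios scaling changes the balance of directions, and both biogenesis curves lie left of all genes in the panels with TTM, with medians of -0.46 and -0.34 against 0.12 and of -0.68 and -0.37 against 0.00.

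Transcripts of the MYC network, the family that reads the E-box, were lower with CuO NPs and mostly higher again with TTM. Myc itself was at 15.3, 14.4 and 14.6 TPM in controls, 7.05, 7.46 and 7.97 TPM with CuO NPs and 16.8, 18.5 and 20.1 TPM with CuO NPs + TTM. No 2 groups of Myc overlapped, and the TTM libraries were the highest. Its log2 fold change was -0.89 with CuO NPs (SE 0.082, limma adjusted p = 3.04e-05), 1.19 with TTM against CuO NPs (adjusted p = 5.63e-06) and 0.30 with TTM against control (adjusted p = 0.0109). Of the 11 tested genes of the network 8 fell and 1 rose with CuO NPs, 7 rose and none fell with TTM against CuO NPs in limma's test (none at an unadjusted p below 0.05 and 1 with median-of-ratios scaling), and 5 rose and 4 fell with TTM against control. As shares of the 11, 72.7% fell and 9.09% rose with CuO NPs (all tested genes 30.1% and 11.8%), 63.6% rose with TTM against CuO NPs (all tested genes 34.6%, and 18.5% fell), and 45.5% rose and 36.4% fell against control (all tested genes 27.3% and 28.2%). Mycl, a relative of Myc, had by far the highest level of the network per length, at 2426 ± 89.9 TPM in controls, 1170 ± 72.6 TPM with CuO NPs and 1199 ± 43.9 TPM with CuO NPs + TTM, with -1.05 and then 0.04 (adjusted p = 0.589). Mxd1 and Mxi1, which compete with MYC for its partner Max, were at 12.4 ± 0.291, 6.01 ± 0.435 and 28.4 ± 1.57 TPM and at 19.0 ± 0.802, 22.9 ± 1.97 and 40.5 ± 3.23 TPM in the order control, CuO NPs and CuO NPs + TTM. Mxd1 rose by 2.07 and Mxi1 by 0.80 with TTM against CuO NPs, and both were above control, by 1.13 and 1.05. Mxd3 fell by -1.15 with CuO NPs and remained below control with TTM (-0.84), and Mycn was listed at 0 in every library. The rise of Mxi1 with CuO NPs alone, 0.25, was lost without control replicate 2 (0.23) or 3 (0.25) and without CuO NPs replicate 1 (0.25) or 2 (0.20), which left none of the network higher there.

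Other measures moved between the groups as well. The share of TPM in mitochondrially encoded mRNA was 12.9 ± 0.468% in controls, 15.7 ± 0.213% with CuO NPs and 12.2 ± 1.04% with CuO NPs + TTM. When these genes were taken out of the total, 13 factors were called lower and 2 higher with CuO NPs. Of the 13216 genes tested in that setting, 3311 were lower and 1780 higher. With TTM against CuO NPs, 36 factors and 2824 genes were lower there, so the factors' falls with TTM were as many without the mitochondrial genes. Granulocyte and mast cell markers, of which S100a8 was the highest, summed to between 385 and 402 TPM in controls, 200.2 and 221 TPM with CuO NPs and 65.2 and 72.5 TPM with CuO NPs + TTM, in the same order as the factors, and their part in the result was not tested. Within the CuO NPs + TTM group, replicate 1 was the highest library for 26 of the 42 factors and replicate 3 the lowest for 25. Leaving out replicate 1 of that group moved the factors' median against CuO NPs from -0.46 to -0.50, and leaving out replicate 3 moved it to -0.42.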

How the data were processed

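The authors deposited 1 table of TPM values for 9 libraries, written with 2 decimals and summing to the same total in each. Per the labels' protocols, libraries came from a stranded poly(A) mRNA kit and were read in pairs. The tools HISAT2, RSEM, fastp and DESeq2 and the build GRCm39 are named, per the submitters' processing notes, without version or role. TPM keeps no depth, so no counting interval was computed. Symbols were matched by Ensembl identifier through reference tables (52073 of 56980), and 4 of the other biogenesis genes were found under older symbols.

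The members and lists were chosen with earlier results of these data known. Genes with at least 1 TPM in at least 3 libraries were tested on log2(TPM + 1), a scale that understates changes of low genes, with limma 3.58.1 in R 4.3.3. The fit had 1 mean per group over all 9 libraries and an intensity trend, and p-values were two-sided, with Benjamini-Hochberg adjustment over the genes of a comparison and calls below 0.05. Promoters came from RefSeq (GRCm38.p6), gene positions and transcripts from GENCODE M21 (GRCm38), and neither build is that of the authors, so they serve for sequence and neighbours and for no deposited coordinate.

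Library values are given for the 2 called factors with the largest absolute log2 fold change in each role group and comparison, and for Myc; of each list of other genes, the 2 highest and 2 lowest called are named. Other genes named, and Nop14, Noc2l and Npm1 with library values, were added after their values were seen. The marker list of macrophages held 13 symbols, of which Siglec5 had no match. Alternatives were a pseudocount of 0.1, no filter, a filter at 5 TPM, median-of-ratios scaling, a total without mitochondrially encoded genes, a fit of the 2 groups compared, no intensity trend, a replicate block, and leaving out each library. Those for genes outside the 42 were added after the data were seen. Software was pandas 2.3.3 and numpy 2.4.6 under Python 3.11.15, with matplotlib 3.10.9 for plots.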

Additional observations from a re-analysis of the deposited data

How the results depend on the processing

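The falls with TTM kept their direction and their counts within 1.5 times under all 17 alternatives, while the balance under CuO NPs alone moved with the scaling. For CuO NPs against control, median-of-ratios scaling called 2534 genes higher, 8 factors higher and 10 lower. Taking mitochondrial genes out of the total called 13 factors lower, beside 3311 of all 13216 genes. Leaving out a library gave 13 to 21 factors lower there, beside 3044 to 3915 of all tested genes. For CuO NPs + TTM against CuO NPs, median-of-ratios scaling called 0 factors higher, and against control leaving out a library gave 0 to 1 factors higher. Directions that changed were all of uncalled values near 0. With median-of-ratios scaling, CuO NPs against control gave 0.06 for Polr1a, 0.01 for Heatr1, 0.04 for Noc4l, Nop56 and Rrs1, and 0.03 for Nolc1, and Polr1c had -0.11 with TTM against CuO NPs, or -0.04 without mitochondrial genes. Leaving out 1 library gave -0.01 to 0.06 for Nhp2 (CuO NPs against control), -0.27 to 0.05 for Nat10 and -0.13 to 0.11 for Polr1c (TTM against CuO NPs), and -0.02 to 0.05 for Nop14 and -0.08 to 0.02 for Wdr75 (TTM against control). The cause was not tested beyond the construction of each alternative.

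Deviations of libraries with the same replicate number correlated at -0.127 to 0.01 across genes. That does not settle whether libraries of 1 number shared a culture or day, which the labels do not say. With the replicate number as a block, 17, 35 and 37 factors were called lower and 2, 1 and 0 higher in the 3 comparisons. Over all genes the block gave 1375 higher and 3550 lower, 4223 and 2246, and 3357 and 3441. With no counts and 3 libraries a group, small differences such as those of Fbl, Nop2 and Nop16 rest on few values.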
